A study of Rattus norvegicus with 32 samples.

Results

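The genes described here build, remodel and clear the lipoproteins that carry fat and cholesterol out of the liver and back. They are 10 genes, Apob, Mttp, Apoa1, Apoa4, Lcat, Apoa5, Apoc3, Lpl, Lipc and Apoe, of 11625 genes tested on rat liver arrays. Each was found by its symbol in the array's annotation, and its brightest single-gene probe set stood for it. Only Apob had a further probe set, so 11 probe sets matched. All 10 passed the filter on dim probe sets.

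All rats were male Wistar Kyoto rats, 10 weeks old and 250 to 300 g in weight, and breathed filtered air or ozone at 1 ppm for 6 h per day. The day 1 groups were taken right after the first exposure, with 6 air and 6 ozone arrays. The day 2 groups were taken right after the second daily exposure, with 5 and 5 arrays, and the 18 h groups were taken 18 h after it, with 5 and 5. Every harvest time had its own air group, and the labels do not say whether each array held a separate animal, so the p-values measure the spread between these samples, which may be technical.

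The liver packages triglyceride onto apolipoprotein B, with the help of the microsomal triglyceride transfer protein, and secretes the particle as VLDL. Lipases in capillaries and on the liver surface then strip the triglyceride, apolipoproteins on the particle speed or slow that step, and the remnant returns to the hepatocyte through receptors that bind apolipoprotein E. In parallel, apolipoprotein A1 collects cholesterol from cells, and lecithin-cholesterol acyltransferase esterifies it so that it fills the HDL particle.

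Apoa1, Apoc3, Apoa4 and Apoa5 were 4 neighbouring genes in the RefSeq gene table of rat assembly GRCr8, with no other listed gene between them. RefSeq promoter windows were found for 5 of the 10 genes. The 250 bases before the start of 4 of them are printed 5′ to 3′ on the gene's strand. They are those of the called genes with a window (Apoa5, Lipc and Lcat) and of Apoa4. Among the contrasts, Apoa4 was called only for the ozone effect at 18 h minus that on day 1, which was added after the values were seen. Apoc3 was not among the 5. Capitals mark matches, on either strand, to the nuclear receptor half-site AGGTCA, the HNF1 half-site GTTAAT, the E-box CACGTG and the TATA box TATAAA. The Apoa5 window is chr8:55457621-55457870 (plus strand), the Apoa4 window chr8:55435529-55435778 (plus), the Lipc window chr8:80516286-80516535 (minus) and the Lcat window chr19:50748065-50748314 (minus).
Apoa5: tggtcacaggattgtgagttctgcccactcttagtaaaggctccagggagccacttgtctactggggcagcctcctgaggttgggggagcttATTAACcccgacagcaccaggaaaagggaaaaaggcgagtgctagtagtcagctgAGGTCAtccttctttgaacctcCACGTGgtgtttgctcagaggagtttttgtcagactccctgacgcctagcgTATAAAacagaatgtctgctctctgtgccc
Apoa4: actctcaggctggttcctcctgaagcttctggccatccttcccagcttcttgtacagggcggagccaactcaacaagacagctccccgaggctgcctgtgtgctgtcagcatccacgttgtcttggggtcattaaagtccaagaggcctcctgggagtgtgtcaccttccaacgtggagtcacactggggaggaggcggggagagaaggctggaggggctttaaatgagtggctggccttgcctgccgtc
Lipc: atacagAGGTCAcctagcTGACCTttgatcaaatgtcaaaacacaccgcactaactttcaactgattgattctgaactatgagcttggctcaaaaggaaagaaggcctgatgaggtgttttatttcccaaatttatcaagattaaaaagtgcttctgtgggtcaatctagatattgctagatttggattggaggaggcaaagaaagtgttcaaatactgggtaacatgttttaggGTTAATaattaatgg
Lcat: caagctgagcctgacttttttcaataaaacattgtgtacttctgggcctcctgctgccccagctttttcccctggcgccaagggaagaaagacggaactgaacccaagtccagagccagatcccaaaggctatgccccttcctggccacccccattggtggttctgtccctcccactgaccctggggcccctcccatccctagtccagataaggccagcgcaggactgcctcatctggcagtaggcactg
The Apoa5 window held 1 match to each of the 4 motifs. The Lipc window held 2 half-site matches, 1 on each strand, and 1 HNF1 half-site. No letters of these 4 motifs were found in the Apoa4 and Lcat windows. Over 33469 windows of the same length, AGGTCA was found in 14.1%, TATAAA in 12.9%, GTTAAT in 6.45% and CACGTG in 5.59%. A second RefSeq start of Apoa5, whose window overlaps the one printed, kept the TATA box and the E-box. These matches describe letters and do not show binding.

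Values are PLIER probe-set intensities in arbitrary units, and differences are ozone minus air on the log2(intensity + 16) scale with the standard error from limma. A gene was called where limma's adjusted p over all 11625 genes lay below 0.05. Array medians ran from 146.6 to 160.6, and on 2 day 1 arrays, air replicate 2 and ozone replicate 3, probes for nonspecific binding read 54.3 and 66.1 against 85.2 to 92.0 on the others. In all, 7 arrays correlated better with another group than with their own. Of these, day 2 air replicate 5 lay with the day 2 ozone arrays, day 2 ozone replicate 5 and 18 h air replicate 1 with ozone at 18 h, and 18 h air replicate 5 with day 1 air. Values without these arrays are given beside the results they change or in the section on processing. Since they were picked by their expression, leaving them out tends to widen group differences by itself. Hepatocyte markers (8 of 9 listed were on the array, all above the filter) summed to 15.89 to 16.10 on the log2 scale over the arrays of labelled liver tissue. Of them 1 was called lower on day 1, against 16.4% of all genes.

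**Figure D1:**
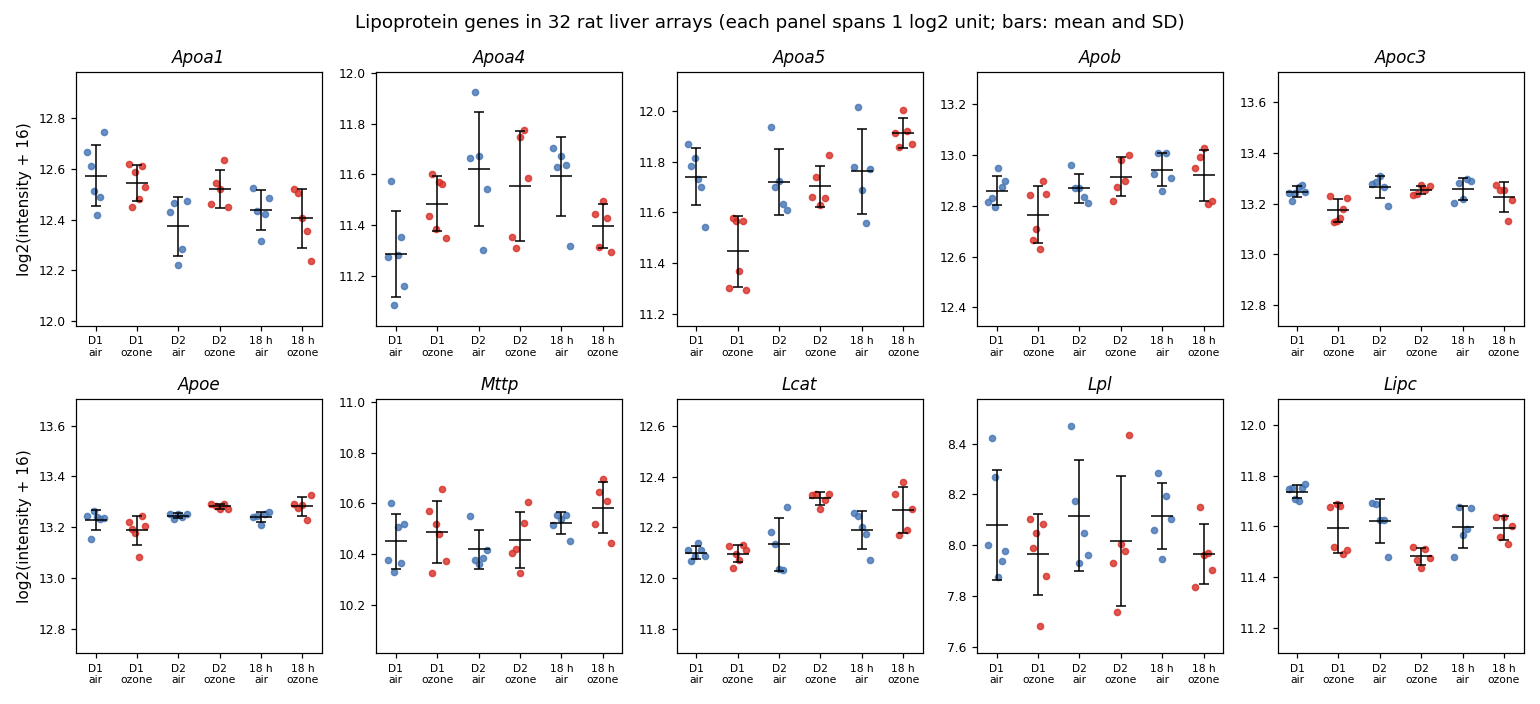
Log2(intensity + 16) of the 10 lipoprotein genes on each of 32 arrays (points), by harvest time (D1, day 1; D2, day 2; 18 h, 18 h after day 2) and exposure (blue, air; red, ozone), with the mean and SD of each group as bars. Every panel spans 1 log2 unit, and the ozone points of Apoa5 and Lipc lie low on day 1 and those of Lcat lie high on day 2.

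After 1 day of ozone, 3 of the 10 genes were called and all 3 were lower: Apoa5, Lipc and Apoc3. Over all genes tested 29.5% were called in either direction and 16.4% were called lower, so the share among the 10 is close to the background. After the second day 1 gene was called, Lcat, which was higher, against 0.705% of all genes in either direction and 0.465% higher. These day 2 shares depend on the arrays kept. Without the 4 arrays named above, 2 of the 10 and 13.5% of all genes were called. Without all 7 arrays nearer another group it was 2 of the 10 and 8.58%. At 18 h 0 of the 10 were called by limma, against 1.17% of all genes, and 0 had an unadjusted p below 0.05, against 12.1% of all genes. The median difference over the 10 was -0.06 on day 1, with 8 of 10 below 0, then 0.01 on day 2 and -0.01 at 18 h. With quantile normalization the day 1 median was -0.02. Over all genes tested it was 0.00, 0.00 and 0.01.

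**Figure D2:**
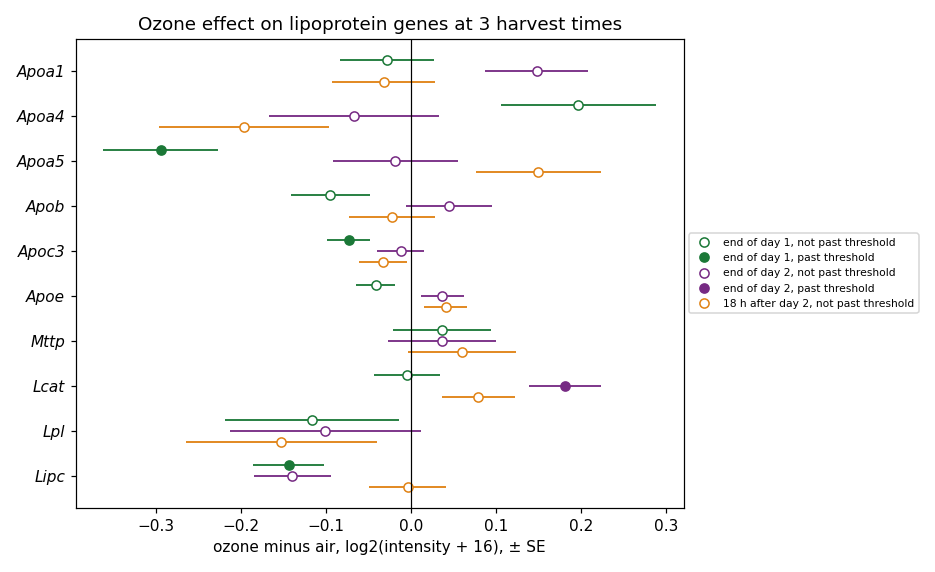
Ozone minus air difference on the log2(intensity + 16) scale (points, with limma's standard error as bars) of each gene at the 3 harvest times (n = 6 and 6, 5 and 5, 5 and 5). Filled points passed the threshold: Apoa5 (-0.29), Lipc (-0.14) and Apoc3 (-0.07) on day 1, and Lcat (0.18) on day 2.

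Apoa5 encodes a scarce apolipoprotein that promotes triglyceride breakdown by lipoprotein lipase. On day 1 its air arrays read 2969 to 3721 with a median of 3447, and its ozone arrays 2494 to 3040.0 with a median of 2824. All but the lowest air array lay above every ozone array. Apoa5 fell 1.23-fold (difference -0.29 ± 0.07, adjusted p = 0.0011 by limma), and the call held in all 32 fits that left out 1 array and in all 13 other settings. On day 2 the air arrays read 3899, 3314, 3365, 3158 and 3108, and the ozone arrays 3220.4, 3405, 3150.4, 3210.0 and 3613. The ranges overlapped throughout, with a difference of -0.02 ± 0.07 (limma adjusted p = 0.99, 95% interval -0.17 to 0.13). The ozone effect on day 2 minus that on day 1 was 0.28 ± 0.10 and missed the threshold (limma adjusted p = 0.098). At 18 h the air arrays read 3499, 4118, 3285, 2995 and 3479 and the ozone arrays 3839, 3691, 4087.5, 3860.2 and 3719. Here 4 of the 5 air arrays lay below every ozone array and the other lay above them all. The difference was 0.15 ± 0.07 (limma adjusted p = 0.41).

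The ozone effect on Apoa5 at 18 h minus that on day 1 was 0.44 ± 0.10 (limma adjusted p = 0.0017), a contrast added after the values were seen. By that contrast 2 of the 10 genes were called, against 20.4% of all genes. Over the 6 groups Apoa5 stood highest after ozone at 18 h, with a log2 level of 11.91 ± 0.06 (SD, n = 5), and lowest after ozone on day 1. Of the 5 pairs of neighbours in that order, 1 did not overlap, with ozone on day 2 above ozone on day 1. The share of such pairs over all genes was not computed.

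Apoc3 encodes an apolipoprotein that holds back lipolysis and remnant uptake. Its day 1 air arrays read 9471 to 9874 (median 9679) and its ozone arrays 8944 to 9594 (median 9144). The ozone group lay low but its top arrays reached into the air range. The probe sets of Apoc3 and Apoe lay at the 99.9th percentile of brightness, and compression of such bright values was not tested. Apoc3 fell 1.05-fold (difference -0.07 ± 0.03, adjusted p = 0.030 by limma). The call was lost when any of day 1 air replicates 4 and 5 or ozone replicates 2, 3 and 4 was left out (adjusted p 0.059 to 0.074). It was also lost with quantile normalization, where the difference was -0.03 (limma adjusted p = 0.37), without the 2 arrays of low nonspecific signal (0.0595) and without the 7 arrays nearer another group (0.060). Day 2 air arrays read 9919.7, 9967, 10134, 9829 and 9342 and the ozone arrays 9625, 9654.5, 9888, 9746 and 9849.7. All 5 ozone arrays lay inside the air range. The differences were -0.01 ± 0.03 on day 2 and -0.03 ± 0.03 at 18 h (limma adjusted p = 0.97 and 0.73).

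Lipc encodes hepatic lipase, which the liver makes and which hydrolyses triglyceride and phospholipid of remnants and HDL. On day 1 its air arrays read 3310.4 to 3467 (median 3425) and its ozone arrays 2859.8 to 3286 (median 3086). Every ozone array lay below every air array, which was so for 1 of the 10 genes and, in either direction, for 15.9% of all genes tested. Lipc fell 1.10-fold (difference -0.14 ± 0.04, adjusted p = 0.0084 by limma), and the call held in all 32 fits without 1 array and in all 13 other settings. The ozone arrays formed 2 levels, with replicates 1, 3 and 4 at 3256 to 3286 and replicates 2, 5 and 6 at 2859.8 to 2916. Apoa5 also had a gap among the ozone arrays, but between other arrays, with replicates 2, 3 and 5 high.

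The day 2 Lipc air arrays read 3287.5, 3282, 3139, 3141 and 2841 and the ozone arrays 2916, 2818, 2754, 2901 and 2831. The groups overlapped only through air replicate 5, one of the arrays that lay with the other exposure. The difference was -0.14 ± 0.05 (limma adjusted p = 0.12), and without that array it was -0.17 (0.012). At 18 h the air arrays read 2841, 3255, 3012, 3068 and 3250.0 and the ozone arrays 3167, 2999.7, 3166, 2945 and 3092. The ozone arrays lay inside the air range, and the difference was -0.00 ± 0.05 (limma adjusted p = 0.99, 95% interval -0.10 to 0.09). The ozone effect on day 2 minus that on day 1 was 0.00 ± 0.06 (95% interval -0.12 to 0.13). The air groups differed by -0.12 ± 0.04 from day 1 to day 2 (limma adjusted p = 0.73). Mean log2 levels were 11.59 in day 1 ozone, 11.62 in day 2 air and 11.6 in 18 h air. Lipc stood highest in day 1 air (11.74) and lowest in day 2 ozone (11.48 ± 0.03, SD, n = 5), and 2 of 5 pairs of neighbours in the order did not overlap. They were day 1 air above day 2 air and ozone at 18 h above ozone on day 2. Neither pair set ozone against air, and the share over all genes was not computed.

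Lpl encodes lipoprotein lipase, which acts mainly in muscle and fat and is low in adult liver. Its probe set was the dimmest of the 10, at the 55th percentile of brightness. Day 1 air arrays read 219 to 327 (median 238) and ozone arrays 189 to 259 (median 243). Those of day 2 read 338, 273, 228, 249 and 233 after air and 228, 197, 241, 236 and 330.1 after ozone. At 18 h they read 251, 296, 230.3, 277 and 259 after air and 213, 268, 233, 234 and 223 after ozone. The groups overlapped at every time. The differences were -0.12 ± 0.10, -0.10 ± 0.11 and -0.15 ± 0.11 (limma adjusted p = 0.43, 0.86 and 0.66), with a 95% interval of -0.38 to 0.08 at 18 h. Macrophages and adipocytes also make Lpl. The Kupffer cell and macrophage markers (10 of 12 on the array, all above the filter) had median differences of -0.16, -0.11 and -0.27 in the 3 comparisons. Against 16.4%, 0.241% and 0.31% of all genes, 2, 1 and 0 of these markers were called lower, and 0 were called higher. Their summed log2 level at 18 h ran from 12.57 to 12.77 in air and from 12.14 to 12.54 in ozone, without overlap. On day 1 it ran from 12.71 to 13.00 in air and 12.33 to 13.03 in ozone. On day 2 it ran from 12.21 to 13.01 in air, while no ozone array exceeded 12.51. The sum adds linear intensities, so the brightest markers, Clec4f (mean log2 level 10.3) and Lyz2 (10.03), weigh most in it. Of 7 adipocyte markers, 3 passed the filter and Plin1, Lep and Fabp4 were on the array below it. The sum of the 3 that passed ran on day 1 from 9.60 to 9.88 in air and from 9.85 to 10.29 in ozone. Of them 1 was called higher then, against 13.1% of all genes, and the median difference was 0.03. On day 2 the sum ran from 9.60 to 9.90 in air and from 9.82 to 9.90 in ozone. At 18 h it ran from 9.76 to 10.55 in air and from 9.735 to 9.925 in ozone. The brightest of the 3 was Cidec (mean log2 level 9.21), with Cfd at 7.92 and Adipoq at 7.11. For stellate cells (6 of 6 markers above the filter) the day 1 sums were 10.15 to 10.24 in air and 10.04 to 10.12 in ozone. Of these markers 1 was called lower on day 1, against 16.4% of all genes, and the median difference was -0.02. Their sums overlapped on day 2 (air 10.08 to 10.36, ozone 10.09 to 10.41). They also overlapped at 18 h (air 10.09 to 10.31, ozone 10.17 to 10.27). For heart and skeletal muscle 3 of 5 markers passed the filter and 0 were called, against 29.5%, 0.705% and 1.17% of all genes. The part of these cells in the results was not tested. In whole liver, fewer cells of a type and less RNA per cell cannot be told apart.

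Lcat encodes the enzyme that esterifies HDL cholesterol, and the liver is its main source. On day 1 its arrays read 4277 to 4488 after air (median 4375) and 4202 to 4465 after ozone (median 4384). The 2 groups shared nearly 1 range, with a difference of -0.00 ± 0.04 (limma adjusted p = 0.94, 95% interval -0.08 to 0.07). On day 2 the air arrays read 4638, 4478, 4186, 4177 and 4954.5 and the ozone arrays 5128, 5144, 4932, 5054 and 5139. Air replicate 5 alone reached into the ozone range. Lcat rose 1.13-fold (difference 0.18 ± 0.04, adjusted p = 0.045 by limma). This call lies near the threshold: it held in 15 of 32 fits without 1 array and in 8 of 13 other settings, with adjusted p from 0.00099 (without day 2 air replicate 5) to 0.19 (without day 2 air replicate 4) over the former. Leaving out any of day 2 air replicates 1 to 4 or ozone replicates 1 to 4 ended it, as did leaving out some arrays of other harvest times and the fit on the 2 day 2 groups alone (0.28). The difference ran from 0.16 to 0.22 without 1 array and from 0.16 to 0.28 in the other settings. At 18 h the air arrays read 4880.1, 4840.5, 4696, 4606 and 4288 and the ozone arrays 5141, 4588, 5319, 4663 and 4938. The groups overlapped, and the difference was 0.08 ± 0.04 (limma adjusted p = 0.48). The effect on day 2 minus that on day 1 was 0.19 ± 0.06 and missed the threshold (limma adjusted p = 0.055).

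Apoa1 encodes the main protein of HDL. Its day 1 arrays read 5459.8 to 6844 after air (median 6032) and 5578 to 6279 after ozone (median 6012). After the second day the air arrays read 5501, 5642, 4750.3, 4965 and 5663 and the ozone arrays 5629, 5953.5, 5854, 6344 and 5573. At 18 h they read 5879, 5514, 5085, 5466 and 5719.6 after air and 5852, 5796, 5409, 5223 and 4811 after ozone. The ranges overlapped at all 3 times. The differences were -0.03 ± 0.06, 0.15 ± 0.06 and -0.03 ± 0.06 (limma adjusted p = 0.75, 0.25 and 0.91). The day 2 difference was called without the 7 arrays nearer another group (0.29, adjusted p = 0.020) and with array weights (0.23, 0.0032). The air groups differed by -0.20 ± 0.06 from day 1 to day 2 (limma adjusted p = 0.55), and the mean of day 2 air was the lowest of the 6 groups.

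Apoa4 encodes an apolipoprotein of chylomicrons and HDL, made mostly by the intestine and, in rodents, also by the liver. On day 1 its air arrays read 2155 to 3030.4 (median 2468) and its ozone arrays 2590.3 to 3094 (median 2882). Only 1 of 6 air arrays lay above the median of the ozone arrays, and the difference was 0.20 ± 0.09 (limma adjusted p = 0.11). It was called without day 1 air replicate 2 (0.25, adjusted p = 0.036), without both arrays of low nonspecific signal (0.27, 0.036), of which that is 1, and with array weights (0.26, 0.029). Day 2 air arrays read 3233, 3869, 3249, 2509 and 2967 and the ozone arrays 2601, 2523, 3425, 3489.8 and 3056, with broad overlap. At 18 h the air arrays read 3324, 3154, 3248, 3167 and 2538 and the ozone arrays 2769, 2531, 2871, 2743.5 and 2499. All air arrays but replicate 5 lay above every ozone array. The differences were -0.07 ± 0.10 and -0.20 ± 0.10 (limma adjusted p = 0.93 and 0.44). The effect at 18 h minus that on day 1 was -0.39 ± 0.14 (adjusted p = 0.036 by limma, contrast added after the values were seen), called in 21 of 32 fits without 1 array and 12 of 13 other settings. Between the air groups, Apoa4 differed by 0.33 ± 0.10 from day 1 to day 2 (limma adjusted p = 0.55). Enterocyte markers (4 of 5 on the array, all above the filter) had median differences of 0.05, 0.03 and -0.01. None was called, against 29.5%, 0.705% and 1.17% of all genes in the same comparisons.

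Apob encodes the structural protein of VLDL, and 1 molecule stays with each particle. Its bright probe set read 7099.5 to 7897 after air on day 1 (median 7375) and 6315 to 7622 after ozone (median 7011). On day 2 it read 7965, 7471, 7477, 7284 and 7175 after air and 7200.3, 7488, 8074, 7624 and 8181.5 after ozone. At 18 h the air arrays ran from 7415.5 to 8226 and the ozone arrays from 7160.4 to 8332. The groups overlapped at each time, with differences of -0.09 ± 0.05, 0.04 ± 0.05 and -0.02 ± 0.05 (limma adjusted p = 0.13, 0.86 and 0.93). The dimmer probe set of Apob gave -0.14 ± 0.07, -0.02 ± 0.08 and -0.07 ± 0.08, also not called.

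Mttp encodes the transfer protein that loads lipid onto apolipoprotein B. It read 1271 to 1539 after air (median 1378) and 1267 to 1599 after ozone (median 1432) on day 1. Over the other 4 groups its arrays lay between 1267 and 1644, and the highest was an ozone array at 18 h. The differences were 0.04 ± 0.06, 0.04 ± 0.06 and 0.06 ± 0.06, with limma adjusted p = 0.68, 0.95 and 0.80. The 95% intervals reached from -0.09 to 0.17 on day 2 and from -0.07 to 0.19 at 18 h.

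Apoe encodes the ligand through which remnants bind hepatic receptors. On day 1 its arrays read 9084 to 9817 after air (median 9659.7) and 8649.8 to 9688 after ozone (median 9396). Day 2 brought air arrays at 9731, 9606, 9747, 9659.6 and 9730.4 and the ozone arrays 10023, 9959, 9869, 10005 and 9875. All 5 ozone arrays lay above all 5 air arrays, which was so for 1 of the 10 genes and for 1.49% of all genes in either direction. The difference was small, 0.04 ± 0.03, and was not called (limma adjusted p = 0.63). The differences on day 1 and at 18 h were -0.04 ± 0.02 and 0.04 ± 0.03 (limma adjusted p = 0.19 and 0.56). At 18 h 0 of the 10 genes separated the groups, against 2.76% of all genes.

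In a moderated F test over the 6 groups, added after the values were seen, 8 of the 10 genes passed, against 39.0% of all genes tested. Mttp (limma adjusted p = 0.26) and Lpl (0.68) did not. The 8 that passed lay between the 97.6th and 99.9th percentile of brightness, and the share among equally bright genes was not tested. The distance from the highest to the lowest group mean ran from 0.09 for Apoc3 and Apoe to 0.47 for Apoa5. Apart from 1 pair for Apoa5 and 2 pairs for Lipc, neighbouring groups overlapped in every gene's order. None of these pairs set ozone against air, and the share over all genes was not computed. No gene of the 10 was called for the ozone effect on day 2 minus that on day 1 (5.09% of all genes called). The same was true by limma of the effect at 18 h minus that on day 2 (0.0086%), of air on day 2 minus air on day 1 (0.0086%) and of air at 18 h minus air on day 2 (0.12%). At an unadjusted p below 0.05 stood 4, 2, 3 and 0 of the 10 genes in these 4 contrasts, against 19.8%, 8.68%, 6.66% and 9.41% of all genes. These contrasts share groups and are not separate evidence.

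Of 72 further lipoprotein genes listed by role, 62 were tested. On day 1, 6 were higher and 19 lower by limma, against 13.1% and 16.4% of all genes, and their median difference was -0.05. Without the 2 arrays of low nonspecific signal the counts were 4 and 10, against 11.3% and 13.8% of all genes in that fit. On day 2 0 were called, against 0.465% of all genes higher and 0.241% lower. At 18 h 4 were higher and 0 lower, against 0.86% and 0.31%. Leaving out the 4 arrays named above as nearer another group gave 6 higher and 5 lower on day 2. In that fit 6.47% and 7.08% of all genes were called. At 18 h it gave 6 and 1, against 3.72% and 1.24%.

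Among regulators, 3 of 17 rose and 7 fell on day 1, where 13.1% of all genes were called higher and 16.4% lower. Ppargc1a, the coactivator that drives fasting metabolism, rose by 0.86 ± 0.16 (log2, limma adjusted p = 0.00011), and its relative Ppargc1b rose by 0.56 ± 0.12. Nr0b2, the small heterodimer partner that represses bile acid synthesis, showed the largest fall among the 62, -1.39 ± 0.26. Srebf2, the master factor of cholesterol synthesis, differed by -0.33 ± 0.06. Ppara, the fatty acid receptor, differed by -0.18 ± 0.04, and Nr1h3, the oxysterol receptor LXR alpha, by -0.26 ± 0.07.

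Of the genes of HDL formation, 1 of 7 rose and 2 fell on day 1: Abca1, which loads cholesterol onto apolipoprotein A1, differed by -0.42 ± 0.10, and Bmp1, the protease that matures proapolipoprotein A1, by 0.24 ± 0.05. In assembly and secretion, 2 of 12 rose and 2 fell, with Sar1a, a coat GTPase of the secretory pathway, at 0.22 ± 0.05 and Arfrp1, a Golgi GTPase, at -0.12 ± 0.03. Among lipases and modulators, 0 of 8 rose and 3 fell, with the lysosomal lipase Lipa at -0.43 ± 0.12. Among receptors, 0 of 11 rose and 3 fell, with the remnant receptor Lsr at -0.33 ± 0.09. Of 7 other apolipoproteins, 0 rose and 2 fell. The shares of all genes on day 1 were 13.1% higher and 16.4% lower, and no role was tested as a set. All these calls are limma's at an adjusted p of 0.0070 or less for the named genes.

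At 18 h the 4 genes that rose were Sdc1 (0.52 ± 0.10, limma adjusted p = 0.0096), a heparan sulfate proteoglycan that captures remnants, Apon (0.42 ± 0.09), Stab2 (0.28 ± 0.07), a scavenger receptor of the sinusoidal endothelium, and Foxa2 (0.63 ± 0.16), a liver transcription factor. Stab2 also stands among the 5 tested endothelial markers and was the 1 of them called, against 1.17% of all genes. The summed level of these markers overlapped between air (11.28 to 11.54) and ozone (11.24 to 11.57). On day 1 Stab2 had been called in the other direction, at -0.20 ± 0.06 (limma adjusted p = 0.016). In a fit of the 18 h groups alone 0 of the 62 were called, against 0.0086% of all genes higher and 0% lower.

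**Figure D3:**
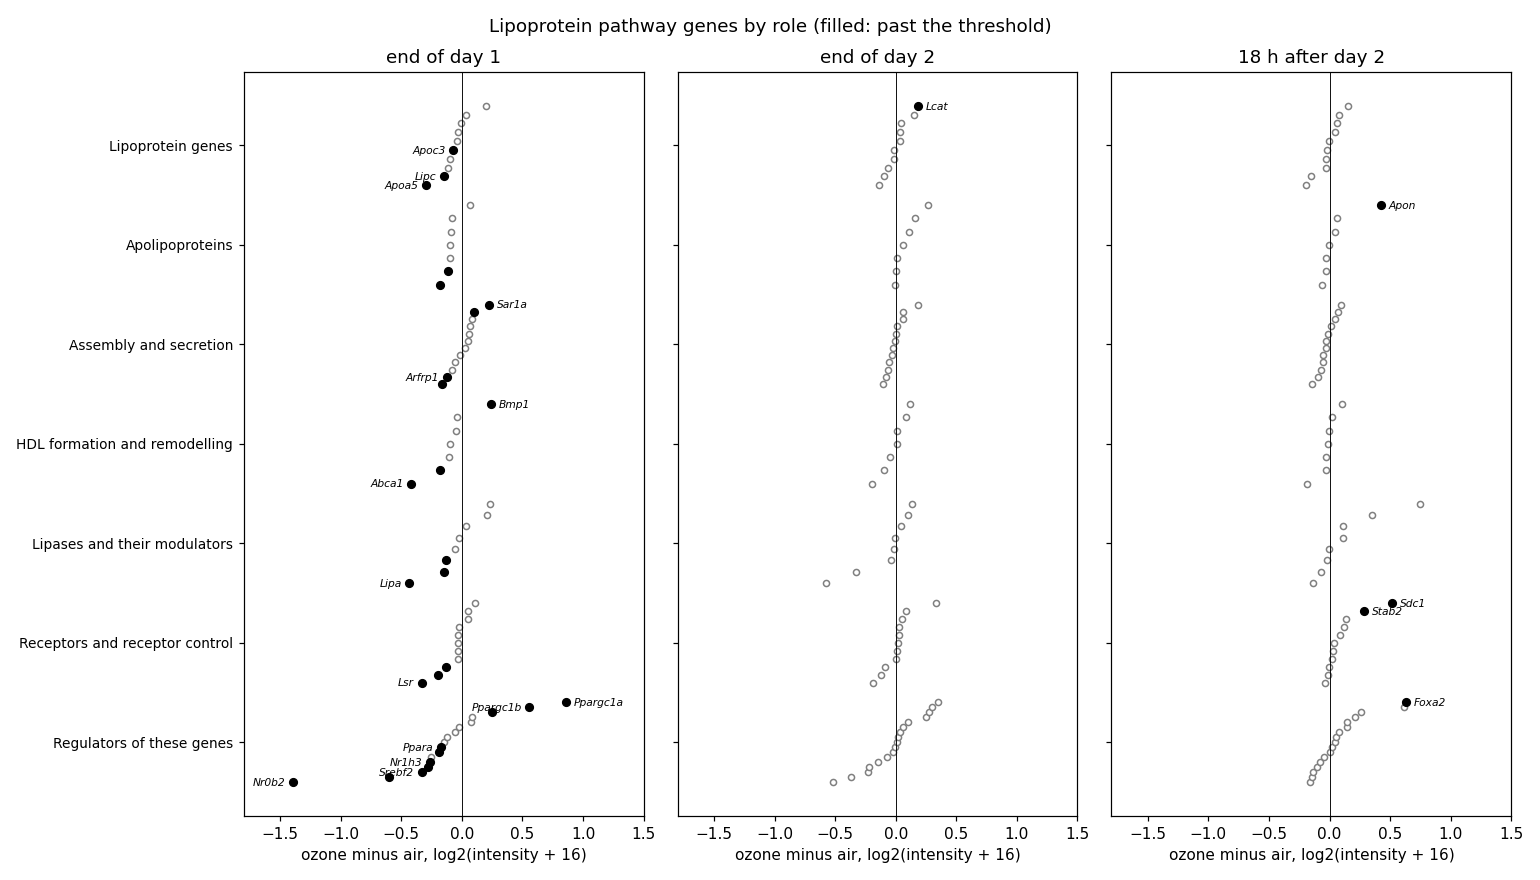
Ozone minus air difference on the log2(intensity + 16) scale at each harvest time for the 10 lipoprotein genes and 62 further genes of the pathway grouped by role (points; filled where limma's adjusted p was below 0.05; the genes named in the text are labelled). On day 1 the filled points include 19 lower and 6 higher genes of the 62, with Nr0b2 at -1.39 and Ppargc1a at 0.86 the most distant, and on day 2 none of the 62 is filled.

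**Figure D4:**
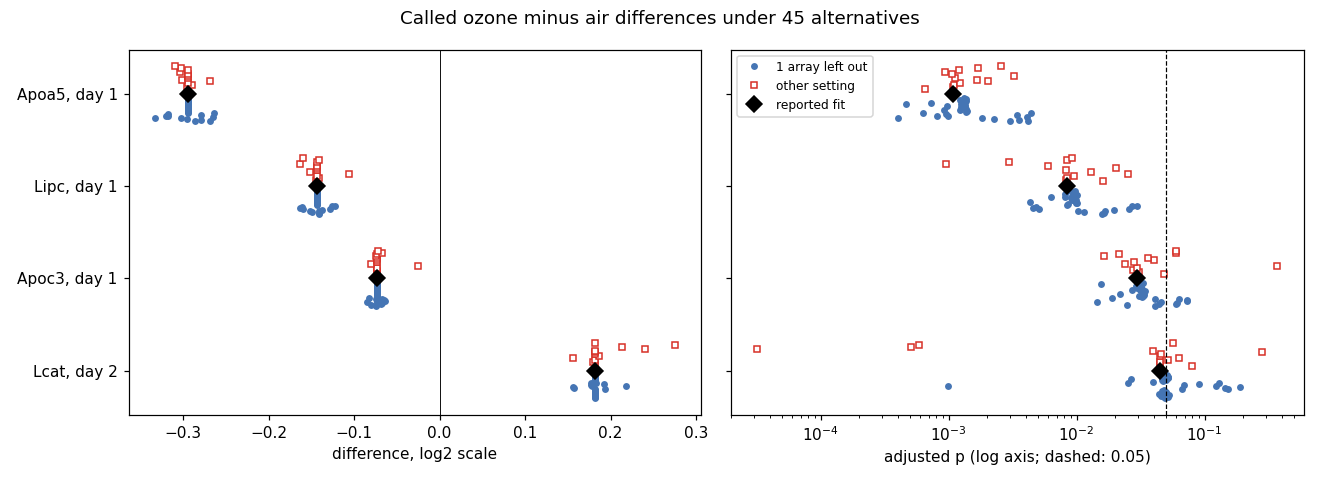
Difference (left, log2 scale) and limma's adjusted p (right, log axis, dashed line at 0.05) of the 4 called differences in the reported fit (diamonds), in 32 fits without 1 array (circles) and in 13 other settings (squares). Apoa5 and Lipc stay left of the dashed line throughout, while Apoc3 and Lcat have points on both sides of it.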

How the data were processed

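Total RNA of 32 rat liver samples was hybridised to Affymetrix rat arrays, and the titles gave the groups and the replicate numbers. The deposited values are linear probe-set intensities from 30.5 to 15558. The authors made them with PLIER and the Affymetrix Expression Console software, as the submitters' processing notes list (versions, background correction and normalization between arrays: not given in the sources used here). Since nonspecific-binding probes had medians of 54.3 to 92.0, fold changes of dim genes may be understated. Of 31139 probe sets, 19062 had 1 gene in the platform annotation. Probe sets below the 25th percentile of mean log2 value were left out, and the brightest stood for its gene, which left 11625 genes. Log2(intensity + 16) was fitted with limma 3.58.1 in R 4.3.3 (lmFit, eBayes with an intensity trend), with 1 mean for each of 6 groups and no block. Two-sided p-values were adjusted over all genes tested (Benjamini-Hochberg). The number of arrays limits the precision. The replicate numbers were checked for pairing: 1 of 16 same-numbered pairs correlated above 0.1, so they were not taken as pairs.

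The 10 genes, the 72 listed genes and the marker lists were chosen with earlier results of these data known. All 10 genes are described; of the others, at most the 12 with the smallest p past the threshold per ozone contrast are named. Motifs were searched in RefSeq promoter windows (GRCr8). The alternatives were offsets, filters, normalizations, probe set choice, array weights, the samples fitted, the block and left-out arrays. The test was run on simulated data first. Figures used Python 3.11.15 and matplotlib 3.10.9.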

Additional observations from a re-analysis of the deposited data

Results flagged for a closer look

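Among the 60 sets of values formed by 10 genes and 6 groups, 3 held an array far from the others, about as many as the 1 in 20 that chance gives. For Apoa4, air replicate 5 at 18 h read 11.32 on the log2 scale, with the nearest of the other arrays at 11.63. For Apoe, day 1 air replicate 2 read 13.15 against 13.23, and this is the array with the lowest signal of nonspecific probes. For Mttp, day 2 air replicate 1 read 10.55 against 10.42.

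The ozone effect differed between 18 h and day 1 for Apoa5, by 0.44 (limma adjusted p = 0.0017), and for Apoa4, by -0.39 (limma adjusted p = 0.036). The estimates at the 2 times had opposite signs, -0.29 then 0.15 for Apoa5 and 0.20 then -0.20 for Apoa4. Only that of Apoa5 on day 1 was called (limma adjusted p = 0.0011). The others were not, with limma adjusted p = 0.41 for Apoa5 at 18 h and 0.11 and 0.44 for Apoa4. By the 18 h minus day 1 contrast 20.4% of all genes were called, and Apoa4 kept its call in 21 of 32 fits without 1 array. This contrast was added after the values were seen.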

How the results depend on the processing

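The 80 differences of the 10 genes over 8 contrasts were refitted in 45 alternatives, 32 of which left out 1 array and 3 of which (without 4, 7 or 2 arrays) were chosen after seeing the data, as were the 18 h minus day 1 contrast and the 6-group test. No called difference changed sign, 42 refits lost a call and 35 gained one. Counts of the 10 genes called without 1 array ran from 2 to 4 on day 1, 0 to 2 on day 2, 0 to 0 at 18 h, 0 to 2 for the day 2 minus day 1 effect, and 1 to 3 for the 18 h minus day 1 effect. In these fits 295 to 892 of the 11625 genes were called for day 2 minus day 1. For 18 h minus day 1 it was 2056 to 2578. On day 2 the count of 1 became 0 without the dim filter, with quantile normalization, in the day 2 groups alone and without the 2 arrays of low nonspecific signal, 2 without 4 or 7 arrays nearer another group, and 3 with array weights. The day 2 minus day 1 count of 0 became 1 with median centring, where 4.43% of all genes were called. It was also 1 in its own groups alone (3.91%) and without the intensity trend (5.57%). The same count arose without 4 (2.68%) or 7 arrays (2.01%), and weights gave 4 (8.15%). Weights gave 1 at 18 h (5.28% of all genes) and 1 for 18 h minus day 2 (9.01%). They gave 2 for air day 2 minus day 1 (0.49%) and 4 for 18 h minus day 1 (26.3%). Without 7 arrays 1 was called for 18 h minus day 2 (6.68%). Median centring gave 1 for 18 h minus day 1 (18.6%). The cause of these moves was not tested. Over all genes, 3428 were called on day 1 (2919 to 3720 in the other settings). On day 2 it was 82, and 1 in its own groups alone, 22 without the filter, 137 with quantile normalization, 13 without the 2 arrays, 1575 without 4, 997 without 7 and 2032 with weights. At 18 h it was 136, and 1, 74 (median centring), 576, 594 and 614 (own groups, 4 arrays, 7 arrays, weights). Leaving out 1 array gave 1 to 977 genes on day 2, the most without air replicate 5, and 32 to 411 at 18 h.

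With the replicate number as a block, 0 of the 10 genes were called on day 2 (Lcat adjusted p = 0.080 by limma) and 6 of all genes. The block changed no other count of the 10 genes. Only 2 of 16 air arrays correlated best with the ozone array of their own number, so no pairing is shown.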

Other observations

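The genes most like each of the 10 by Pearson's r over the 32 arrays are given as a description; arrays share group differences and brightness, so no test applies. Apob went most closely with Cyb5a (r = 0.896), the electron carrier cytochrome b5, and then Apoh (0.885). Apoe went with Itih3 (0.902) and Azgp1 (0.846), and Apoc3 with Rnase4 (0.892) and Pon1 (0.889), both genes of proteins that hepatocytes secrete. Lcat went with Hsd17b11 (0.874) and Chchd10 (0.859), Lipc with Tmsb4x (0.865) and Slpi (0.825), and Apoa5 with Gdpd1 (0.864) and Jtb (0.839). The highest values for Apoa4 were lower, with Akap1 (0.573) and Phkg2 (0.534). Between these lay Mttp with Mat2a (0.805) and Ppp1cb (0.772), Lpl with Tubb4b (0.758) and Anxa1 (0.692), and Apoa1 with Exosc10 (0.739) and Ighl13 (0.685).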
